A study of Mus musculus with 9 samples.

Results

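Dynll1 and 7 further genes of cytoplasmic dynein were followed by RNA sequencing in bone marrow progenitors of mice with a Jak2 mutation, with and without sgZrsr2. The 8 genes (Dynll1, Dynll2, Dynlrb1, Dynlt3, Dync1h1, Dync1i2, Dync1li1 and Dync1li2) were taken by symbol from the 38215 genes of the deposited count table. All 8 passed the filter on low counts that left 14944 genes for testing. Dynll1 was picked because it was lower with sgZrsr2 in these same libraries, so its difference between the groups is given as a description without a test. The other 7 were added to show whether the other subunits moved with it.

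The cells were LSK bone marrow cells (negative for lineage markers, positive for Sca1 and Kit), a fraction that holds haematopoietic stem cells and multipotent progenitors, sorted as double positive for GFP and mCherry at the terminal time point. All mice were of the C57BL/6J strain, had received tamoxifen and had Jak2V617F, an activating kinase mutation of myeloproliferative neoplasms, in their genotype. The 5 EV mice (numbers 1 to 5) have the genotype Jak2V617F alone, and the 4 sgZrsr2 mice (1, 2, 3 and 5) have Jak2V617F-sgZrsr2. Zrsr2 encodes a protein of the minor spliceosome, which removes a small class of introns. What EV and the prefix sg stand for is not stated in the labels, and the age of the mice, the Cre driver and the guide sequence are not given in the sources used here.

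Cytoplasmic dynein 1 is the motor that carries cargo towards the minus ends of microtubules, and in dividing cells it also acts at kinetochores, at the spindle poles and at the cell cortex. Its heavy chain binds microtubules and hydrolyses ATP. Intermediate and light intermediate chains bind the heavy chain tail and connect it to dynactin and to adaptor proteins, while light chains of the LC8, Roadblock and Tctex families bind the intermediate chain. The LC8 light chains, encoded by Dynll1 and Dynll2, also bind many proteins outside the motor, among them the BH3-only proteins Bim and Bmf and the DNA repair factor 53BP1.

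The LC8 genes are close paralogs, which bears on whether reads could be divided between them. Their coding sequences in GENCODE M21 (GRCm38), from start to stop codon, are printed 5′ to 3′ with capitals at each base that differs between the genes.
Dynll1: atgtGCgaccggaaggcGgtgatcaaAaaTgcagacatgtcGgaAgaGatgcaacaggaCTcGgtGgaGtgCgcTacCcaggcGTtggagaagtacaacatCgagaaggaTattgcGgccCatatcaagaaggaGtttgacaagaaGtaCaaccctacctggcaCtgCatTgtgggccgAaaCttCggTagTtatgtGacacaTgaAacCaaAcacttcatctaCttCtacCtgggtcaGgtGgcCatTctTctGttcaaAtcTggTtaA
Dynll2: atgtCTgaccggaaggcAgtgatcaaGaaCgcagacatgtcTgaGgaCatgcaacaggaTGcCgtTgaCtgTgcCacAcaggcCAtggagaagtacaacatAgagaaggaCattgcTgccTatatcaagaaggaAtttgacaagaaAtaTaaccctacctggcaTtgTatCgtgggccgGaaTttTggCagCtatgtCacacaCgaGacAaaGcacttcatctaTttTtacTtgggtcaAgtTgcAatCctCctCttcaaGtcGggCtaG
Both are 270 bases long without a gap between them, and 81.1% of the bases are identical. Of the 51 differing bases, 46 lie at the third codon position, 4 at the first and 1 at the second. The longest run of identical bases is 16, and the expected counts of Dynll2 were whole numbers in 9 of 9 libraries and those of Dynll1 in 7 of 9. RSEM leaves fractions where it divides reads between genes, so the table shows little division of the reads of either gene.

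The libraries held 23238264 to 45585531 expected counts. Levels are given as CPM, counts scaled to a common library size, with TMM factors that correct for differences in library composition, and values by library follow the order of mice 1, 2, 3, 4 and 5 for EV and 1, 2, 3 and 5 for sgZrsr2. The targeted gene Zrsr2 averaged 53.4 ± 4.94 CPM over the EV libraries (SD, n = 5) and 38.9 ± 5.30 CPM over those of sgZrsr2 (SD, n = 4), or 72.8% of the EV mean. The groups did not overlap, as in 1.32% of all genes tested with sgZrsr2 lower. Zrsr2 did not pass the correction over all genes (log2 fold change -0.46, SE 0.12; edgeR adjusted p = 0.714). The LSK markers Kit, Ly6a (Sca1), Cd34, Flt3, Mecom, Hlf and Slamf1 had counts in every library and summed to 1340 to 1880 CPM for EV and 1500 to 1900 CPM with sgZrsr2. Megakaryocyte markers summed to 121 to 286 and 215 to 461 CPM and erythroid markers to 16.9 to 55.2 and 45.5 to 100 CPM (6 genes each), and mature neutrophil markers to 5.57 to 158 and 6.8 to 188 CPM (5 genes), in EV and sgZrsr2 libraries in this order. Monocyte and dendritic cell markers summed to 462 to 1120 and 419 to 999 CPM and lymphoid markers to 90.7 to 318 and 58.3 to 232 CPM (5 genes each). EV mouse 5, sgZrsr2 mouse 3 and sgZrsr2 mouse 5 stood apart: Car1 was at 25.4 to 39.3 CPM in these 3 and at most 0.422 CPM in the other 6, and Vwf was at 53.2 to 91.1 against at most 11.4 CPM. Not every gene of these lists followed. The megakaryocyte marker Itga2b was at 199 to 319 against 109 to 263 CPM. The globin gene Hbb-bt was at 5.59 to 15.4 against 13.5 to 46.2 CPM. Counts of Hbb-bt were fractional in every library, so its reads were divided with another gene. The T cell marker Cd3e was at 0 in 8 of 9 libraries.

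**Figure D1:**
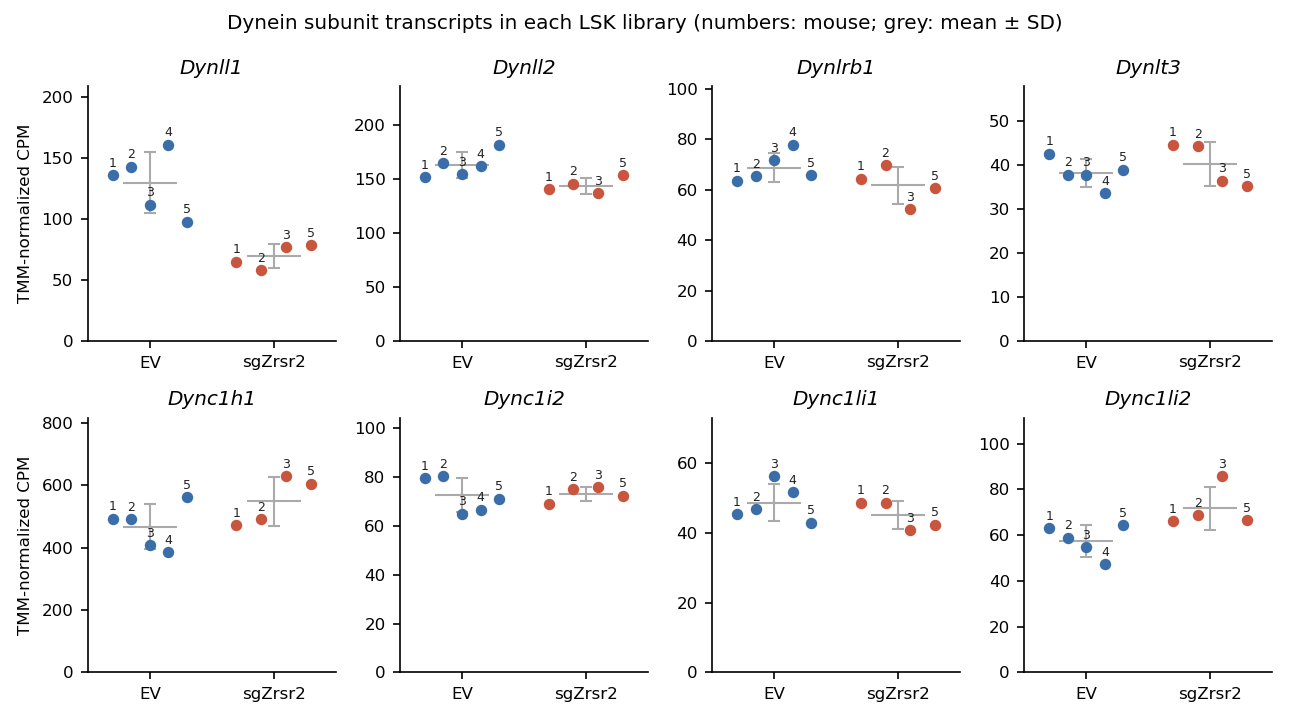
Each panel plots 1 gene, with TMM-normalized CPM on the vertical axis from 0, 1 point per library (number: mouse) and the group mean ± SD in grey for EV (blue) and sgZrsr2 (red). Dynll1 and Dync1li2 are the panels in which the groups do not overlap, with sgZrsr2 at 58.0 to 78.5 against 97.8 to 161 CPM for Dynll1 and at 66.1 to 85.7 against 47.2 to 64.3 CPM for Dync1li2.

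Dynll1 (ENSMUSG00000009013; chromosome 5, 115297110 to 115300999, minus strand, all positions on GRCm38) was at 136, 143, 112, 161 and 97.8 CPM in the EV libraries. The sgZrsr2 libraries read 65.2, 58.0, 77.0 and 78.5 CPM. No sgZrsr2 library reached the lowest EV library, and the sgZrsr2 mean was 53.6% of the EV mean (69.7 ± 9.81 against 130.0 ± 25.3 CPM, SD). This is a log2 fold change of -0.90 (SE 0.16), on 1451 to 7272 counts per library. Groups that do not overlap, with sgZrsr2 lower, were found in 1.32% of all genes tested, and nothing is read from this share for Dynll1, which was chosen from this contrast. In bulk samples, fewer cells of a kind that expresses a gene and less of its RNA per cell cannot be told apart.

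The 3 libraries with high Car1 and Vwf lay at the inner edges of the Dynll1 groups. EV mouse 5 had the lowest EV level, at 97.8 CPM, and sgZrsr2 mice 3 and 5 had the highest levels of their group, at 77.0 and 78.5 CPM. Without these 3 libraries the log2 fold change of Dynll1 was -1.16, against -0.90 with them. Removing libraries at the inner edges of both groups widens the difference by itself, so nothing is read from this change. The lowest levels, 65.2 and 58.0 CPM, were those of sgZrsr2 mice 1 and 2. Their libraries were the smallest (23238264 and 25857723 counts) and had the highest share of mitochondrial counts, 4.04% and 4.07% against 2.27% to 3.36% in the other 7. They also had the lowest sums of monocyte and dendritic cell markers, 419 CPM each against 462 to 1120 CPM, and of lymphoid markers, 58.3 and 67.7 against 90.7 to 318 CPM. The part of any of these in the result was not tested. With their counts averaged into 1 sample the log2 fold change of Dynll1 was -0.85. The annotation lists 6 transcripts of Dynll1, of which 2 code for the protein and 2 are retained-intron forms. The deposited values are sums per gene and do not tell them apart.

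The paralog Dynll2 (ENSMUSG00000020483; chromosome 11, 87979525 to 87987533, minus strand) was at 152, 165, 155, 162 and 182 CPM in the EV libraries. The sgZrsr2 libraries read 141, 146, 137 and 154 CPM. The groups overlapped by 1 library, sgZrsr2 mouse 5, which at 154 CPM lay above EV mouse 1. The highest Dynll2 level, 182 CPM, was that of EV mouse 5, in which Dynll1 was lowest among the EV libraries. Dynll2 had a log2 fold change of -0.18 (SE 0.09; 95% interval -0.38 to 0.03) and did not pass (edgeR quasi-likelihood test, adjusted p = 0.714). Its two-sided exact permutation p was 0.0317, which is not adjusted for the number of genes, and its unadjusted p in edgeR was 0.0888.

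The sum of both LC8 transcripts was 289, 308, 266, 323 and 280 CPM in the EV libraries. In the sgZrsr2 libraries it was 206, 204, 214 and 232 CPM. On average the sum in sgZrsr2 libraries was 73.1% of the EV value (214 ± 12.8 against 293 ± 22.5 CPM). Dynll1 made up 47.1%, 46.4%, 42.0%, 50% and 34.9% of the counts of both genes in the EV libraries, and 31.6%, 28.4%, 36.0% and 33.8% in those of sgZrsr2. In this share the groups overlapped, because EV mouse 5 lay below sgZrsr2 mouse 3. These values contain Dynll1 and are given without a test.

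Of the 7 subunits other than Dynll1, none passed an adjusted p of 0.05 in edgeR, where 0% of all 14944 genes did (0 genes). The lowest adjusted p of any gene in edgeR was 0.714. At an unadjusted p under 0.05 in edgeR there was 1 of the 7, Dync1li2, against 6.85% of all genes in both directions and 3.87% with sgZrsr2 higher. It was also the 1 of the 7 whose groups did not overlap, as in 3.06% of all genes. With the DESeq2 Wald test 0 of the 7 passed the adjusted threshold and 1 had an unadjusted p under 0.05, which 8.54% of all genes had in that test. With limma-voom and sample quality weights these counts were 0 and 2, the second being Dynll2, and 17.1% of all genes had an unadjusted p under 0.05. Without EV mouse 5 and sgZrsr2 mice 3 and 5, 0 of the 7 had an unadjusted p under 0.05 in edgeR, against 11% of all genes, and their log2 fold changes lay between -0.13 (Dynll2) and 0.28 (Dync1li2), with Dynlt3 at 0.24. Their fold changes lay around those of all genes, with 3 lower, 4 higher and a median log2 fold change of 0.01, against -0.01 for all genes tested. Of all genes tested, 51.5% were lower with sgZrsr2.

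**Figure D2:**
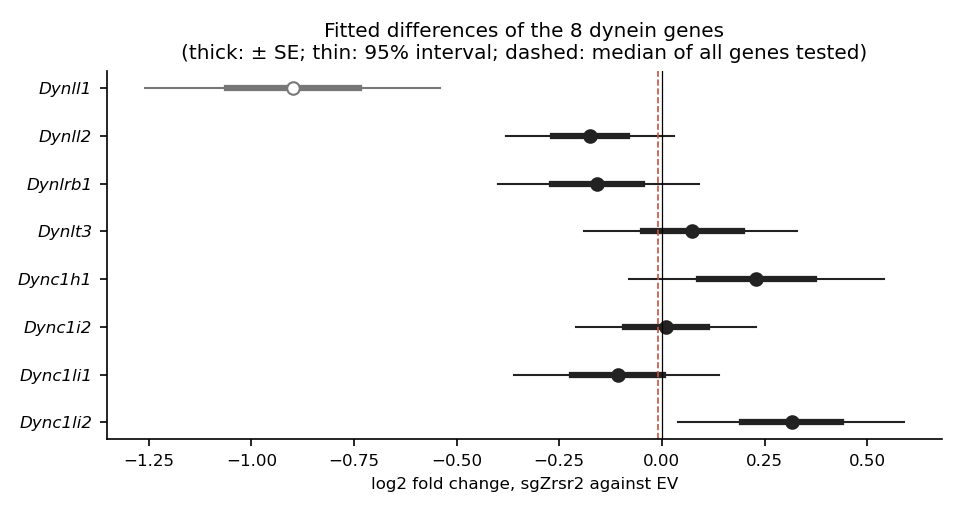
The log2 fold change of sgZrsr2 against EV (horizontal axis) is plotted for each of the 8 genes, with ± SE as a thick line, the 95% interval as a thin line and the median of all genes tested as a dashed line. Dynll1 (open circle, chosen for this difference) is at -0.90, and the other 7 lie between -0.18 and 0.32.

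Neither of the other light chains passed the test. Dynlrb1 (ENSMUSG00000047459; chromosome 2, 155236533 to 155250277, plus strand), the Roadblock light chain, was at 63.6, 65.4, 71.6, 77.8 and 65.7 CPM in the EV libraries and 64.4, 69.7, 52.2 and 60.7 CPM in those of sgZrsr2. The lowest value was that of sgZrsr2 mouse 3 and the groups overlapped (log2 fold change -0.16, 95% interval -0.40 to 0.09; edgeR adjusted p = 0.742). Dynlt3 (ENSMUSG00000031176; chromosome X, 9654267 to 9663003, minus strand), a light chain of the Tctex family, was at 42.5, 37.7, 37.7, 33.5 and 38.9 CPM in the EV libraries and 44.5, 44.2, 36.4 and 35.1 CPM in those of sgZrsr2. Its sgZrsr2 values split into mice 1 and 2 above and mice 3 and 5 below every EV library but mouse 4 (log2 fold change 0.07, 95% interval -0.19 to 0.33; edgeR adjusted p = 0.88).

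The heavy chain gene Dync1h1 (ENSMUSG00000018707; chromosome 12, 110601452 to 110666945, plus strand) encodes the motor subunit itself. It was at 493, 492, 409, 385 and 563 CPM in the EV libraries and 472, 492, 629 and 605 CPM in those of sgZrsr2. The groups overlapped, and the 3 highest values were those of EV mouse 5 and sgZrsr2 mice 3 and 5, at 563 to 629 CPM against 385 to 493 CPM in the other 6. Dync1h1 had a log2 fold change of 0.23 (SE 0.14; 95% interval -0.08 to 0.54), with an edgeR adjusted p of 0.728. Without these 3 libraries it was 0.125. They are the libraries with high Car1 and Vwf, and the part of these markers in this difference was not tested. The antisense gene Gm17111 overlaps Dync1h1 but was at most 0.287 CPM.

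The intermediate chain gene Dync1i2 (ENSMUSG00000027012; chromosome 2, 71211706 to 71263303, plus strand), which links the heavy chain to the light chains and to dynactin, had the fold change closest to 0 of the 8. It was at 79.4, 80.2, 64.9, 66.6 and 71.1 CPM in the EV libraries and 69.0, 74.9, 75.7 and 72.3 CPM in those of sgZrsr2. All 4 sgZrsr2 values lay within the range of the EV values. Dync1i2 had a log2 fold change of 0.01 (SE 0.10; 95% interval -0.21 to 0.23; edgeR adjusted p = 0.982).

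The light intermediate chains, which couple the motor to its cargo adaptors, had fold changes of opposite sign, neither of them past the adjusted threshold. Dync1li1 (ENSMUSG00000032435; chromosome 9, 114688790 to 114724302, plus strand) was at 45.5, 46.8, 56.3, 51.8 and 43.0 CPM in the EV libraries and 48.7, 48.7, 40.9 and 42.4 CPM in those of sgZrsr2. The groups overlapped, and the 3 lowest values, 40.9 to 43.0 CPM, were those of EV mouse 5 and sgZrsr2 mice 3 and 5 (log2 fold change -0.11, 95% interval -0.36 to 0.14; edgeR adjusted p = 0.814). Dync1li1 was thus low in the libraries in which Dync1h1 was high, with 45.5 to 56.3 CPM in the other 6. The part of the same markers in the Dync1li1 values was not tested either.

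Dync1li2 (ENSMUSG00000035770; chromosome 8, 104417674 to 104443047, minus strand) was at 63.1, 58.9, 54.7, 47.2 and 64.3 CPM in the EV libraries. The sgZrsr2 libraries read 66.1, 68.8, 85.7 and 66.4 CPM. Every sgZrsr2 library exceeded the highest EV library, which 1.75% of all genes tested showed in this direction, but the gap between EV mouse 5 and sgZrsr2 mouse 1 was small. The mean was 57.6 ± 6.96 CPM for EV and 71.7 ± 9.37 CPM for sgZrsr2 (SD; two-sided exact permutation test, p = 0.0159, the lowest value possible with 5 and 4 samples). In edgeR the log2 fold change was 0.32 (SE 0.12; 95% interval 0.04 to 0.59) with an unadjusted p of 0.0275 and, over all genes, an adjusted p of 0.714, so Dync1li2 failed the correction although it was higher in 4 of 4 libraries. Without sgZrsr2 mouse 3 the log2 fold change was 0.22 and the unadjusted p in edgeR was 0.099, and without EV mouse 4 these were 0.25 and 0.0592. Without the 3 libraries with high Car1 and Vwf together, Dync1li2 was at 0.28 with an unadjusted p of 0.0832 in edgeR.

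Counts of 2 genes within 1 library can be compared without any scaling factor. The log2 ratio of Dynll1 to Dync1h1 counts was -1.86, -1.78, -1.87, -1.25 and -2.52 in the EV libraries and -2.86, -3.08, -3.03 and -2.94 in those of sgZrsr2. The sgZrsr2 libraries were close together and below every EV library. Against each of the other subunits but Dynll2, the ratio of Dynll1 was also lower in all 4 sgZrsr2 libraries than in all 5 EV libraries. The difference in mean log2 ratio ran from -0.71 against Dynll2 to -1.20 against Dync1li2. These ratios contain the gene that was picked and are a description.

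**Figure D3:**
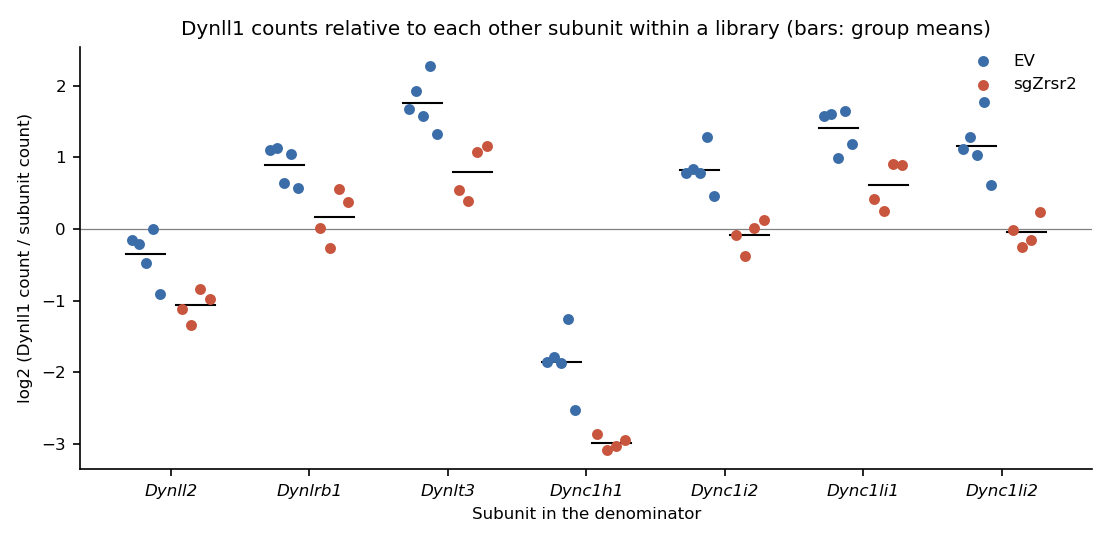
The log2 ratio of Dynll1 counts to the counts of each other subunit (vertical axis) is plotted for every library, with EV in blue, sgZrsr2 in red and a bar at each group mean. The ratio to Dynll2 is the 1 of 7 in which the groups overlap, with EV mouse 5 at -0.90 and sgZrsr2 mouse 3 at -0.83.

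The group differences of 3 ratios among the other subunits were smaller. Those with Dynll1 are favoured by the choice of that gene, so nothing is read from this. The log2 ratio of Dync1li2 to Dync1li1 was 0.47, 0.33, -0.04, -0.14 and 0.58 in the EV libraries and 0.44, 0.50, 1.07 and 0.65 in those of sgZrsr2. The groups overlapped, and sgZrsr2 mouse 3 was the highest (0.24 ± 0.32 against 0.66 ± 0.28, SD; two-sided exact permutation p = 0.0794). The ratio of Dync1li2 to Dync1h1 was -3.02 ± 0.09 with EV and -2.93 ± 0.17 with sgZrsr2 (exact permutation p = 0.333). The ratio of Dync1h1 to Dync1i2 was 2.68 ± 0.17 and 2.90 ± 0.18 (exact permutation p = 0.111). These are 3 ratios chosen with the values known, and none passed.

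Levels of different genes were compared per kilobase of the longest coding transcript in GENCODE M21. The values per gene do not tell which transcript was in use. The order of the genes could change with another choice of length, which the SD does not cover. In EV libraries Dynlrb1 was highest at 87.4 ± 7.45 CPM per kilobase (SD, n = 5), followed by Dynll2 at 65.9 ± 4.79 and Dynll1 at 64.0 ± 12.5. These LC8 levels did not differ beyond their spread. Then came Dync1h1 at 32.7 ± 5.0 and Dync1i2 at 27.5 ± 2.69, with ranges of mean ± SD that overlap, and Dync1li1, Dynlt3 and Dync1li2 at 18.7 ± 2.05, 17.5 ± 1.47 and 12.5 ± 1.5 CPM per kilobase, of which Dync1li1 and Dynlt3 overlap in the same way. With sgZrsr2 (n = 4) Dynlrb1 and Dynll2 stayed highest at 78.4 ± 9.31 and 58.4 ± 2.98 CPM per kilobase, and Dynll1 at 34.3 ± 4.83 was near Dync1h1 at 38.3 ± 5.50. The distance of Dynll1 from Dynll2 with sgZrsr2 rests on the values for which Dynll1 was picked. The spread of Dynll1 over EV mice, a coefficient of variation of 19.5%, was the widest of the 8 genes in that group, and 7.26% for Dynll2 the narrowest.

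The remaining dynein 1 genes were listed with the results of these libraries known. Dync1i1, the other intermediate chain, and Dynlrb2 had at most 5 and 1 counts in a library and were not tested, so intermediate chain RNA came almost only from Dync1i2. The near-identical Dynlt1 copies on chromosome 17 share reads, and their values are uncertain one by one. Dynlt1c, with fractional counts in all 9 libraries, was at 10.1 ± 3.85 CPM for EV and 16.8 ± 6.36 CPM for sgZrsr2 (log2 fold change 0.74, SE 0.34; edgeR adjusted p = 0.714), and Dynlt1a, Dynlt1f and Dynlt1b had log2 fold changes of -0.19, -0.10 and 0.00. Summed over these 4 copies and the pseudogene Dynlt1-ps1, a sum made after the values were seen, the level was 103 ± 11.5 CPM for EV and 106 ± 2.92 CPM for sgZrsr2 (two-sided exact permutation p = 0.889).

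Dynactin is the complex that dynein needs for processive movement. All 12 listed genes were tested, 7 lower and 5 higher with sgZrsr2, with a median log2 fold change of -0.03 and a range of -0.20 to 0.09. Among all genes tested, 51.5% were lower. None of the 12 had an unadjusted p under 0.05 in edgeR, where 6.85% of all genes did, and 0 passed the adjusted threshold (0% of all genes). At the ends of the list were Dctn3, at 26.9 ± 3.13 CPM for EV and 23.5 ± 2.72 CPM for sgZrsr2, and Capza2, at 226 ± 43.2 and 198 ± 33.7 CPM, on the low side. On the high side were Dctn4, at 58.7 ± 2.12 and 62.5 ± 3.73 CPM, and Actr1a, which builds the actin-like filament, at 136 ± 9.23 and 145 ± 15.5 CPM.

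Of 22 listed adaptors and regulators, such as Lis1 (Pafah1b1), the Bicaudal D and Hook proteins and NuMA, 21 were tested. None passed the adjusted threshold in edgeR (0% of all genes). There were 13 lower and 8 higher, with a median of -0.05, where 51.5% of all genes were lower. At an unadjusted p under 0.05 there were 2, both lower, against 2.98% of all genes in that direction. These were Zwilch, at 52.3 ± 6.66 CPM for EV and 41.8 ± 5.18 CPM for sgZrsr2 (log2 fold change -0.32, SE 0.13; edgeR adjusted p = 0.714), and Zw10, whose means were 46.2 and 40.0 CPM (-0.21). The groups of Zw10 did not overlap, as in 1.32% of all genes with sgZrsr2 lower. Zwilch had fractional counts in 8 of 9 libraries, so its reads were divided with another gene. With Kntc1, at 64.9 ± 6.54 and 52.9 ± 11.5 CPM (-0.29, SE 0.15), they encode the RZZ complex, which brings dynein to kinetochores in mitosis. All 3 genes of that complex had values below 0, but none passed, and Zw10 and the complex were singled out after their values were seen. The highest of the list were Hook3, at 48.8 ± 12.7 and 60.3 ± 16.3 CPM, and Trak2, at 79.4 ± 11.8 and 96.1 ± 28.5 CPM, neither beyond its spread. Both split within sgZrsr2. Hook3 was at 43.9 and 50.1 CPM in mice 1 and 2 and at 79.4 and 67.8 CPM in mice 3 and 5. Trak2 was at 119 and 123 CPM in mice 1 and 2 and at 73.2 and 69.8 CPM in mice 3 and 5.

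Partners of the LC8 light chain outside the motor were listed too. Of 10 listed genes 9 were tested, 3 lower and 6 higher, with a median log2 fold change of 0.03. The share of all genes that were lower was 51.5%. None of the 9 had an unadjusted p under 0.05 in edgeR, where 6.85% of all genes did, and none passed the adjusted threshold (0% of all genes). Atmin, a transcription factor known to activate Dynll1, was at 47.7 ± 4.98 CPM for EV and 53.7 ± 3.02 CPM for sgZrsr2 (log2 fold change 0.17, SE 0.10; edgeR adjusted p = 0.728). Bcl2l11, which encodes Bim, was at 37.8 ± 22.1 and 41.3 ± 11.3 CPM, a spread far wider than the difference. EV mouse 3 was at 76.8 CPM and the other EV libraries at 23.4 to 34.1 CPM. Mre11a, a DNA repair nuclease, was at 74.0 ± 2.17 and 66.5 ± 6.13 CPM (-0.15, SE 0.09), and Spag5 at 78.5 ± 12 and 77.0 ± 6.28 CPM.

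The listed kinesin motors and light chains, most of which carry cargo the other way along microtubules, had 16 of 18 listed genes tested, 4 lower and 12 higher, with a median log2 fold change of 0.17 against -0.01 for all genes. Among all genes tested, 51.5% were lower. None of the 16 passed the adjusted threshold in edgeR (0% of all genes). At an unadjusted p under 0.05 were Kif13a, higher, and Kif1c, lower, against 3.87% of all genes in the first direction and 2.98% in the second. Kif13a was at 83.9 ± 3.92 CPM with sgZrsr2 against 69.8 ± 3.45 CPM (log2 fold change 0.26, SE 0.09). Its groups did not overlap, as in 1.75% of all genes with sgZrsr2 higher. Kif1c was at 33.3 ± 4.65 against 40.9 ± 5.10 CPM (-0.30, SE 0.14). Kif13b had the highest value (0.40, SE 0.22) and Kifap3 the second lowest (-0.17, SE 0.19). Of the 5 genes of dynein-2, the motor of cilia, 4 were lower and 1 higher (median -0.07). None of the 5 passed the adjusted threshold in edgeR (0% of all genes), and 1 was lower at an unadjusted p under 0.05 (2.98% of all genes). This was Wdr34, an intermediate chain of that motor, at 30.7 ± 3.5 CPM for EV and 24.4 ± 2.92 CPM for sgZrsr2 (-0.33, SE 0.13; edgeR adjusted p = 0.714). Wdr60, Tctex1d2 and Dync2h1 had log2 fold changes of -0.07, -0.06 and 0.05.

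**Figure D4:**
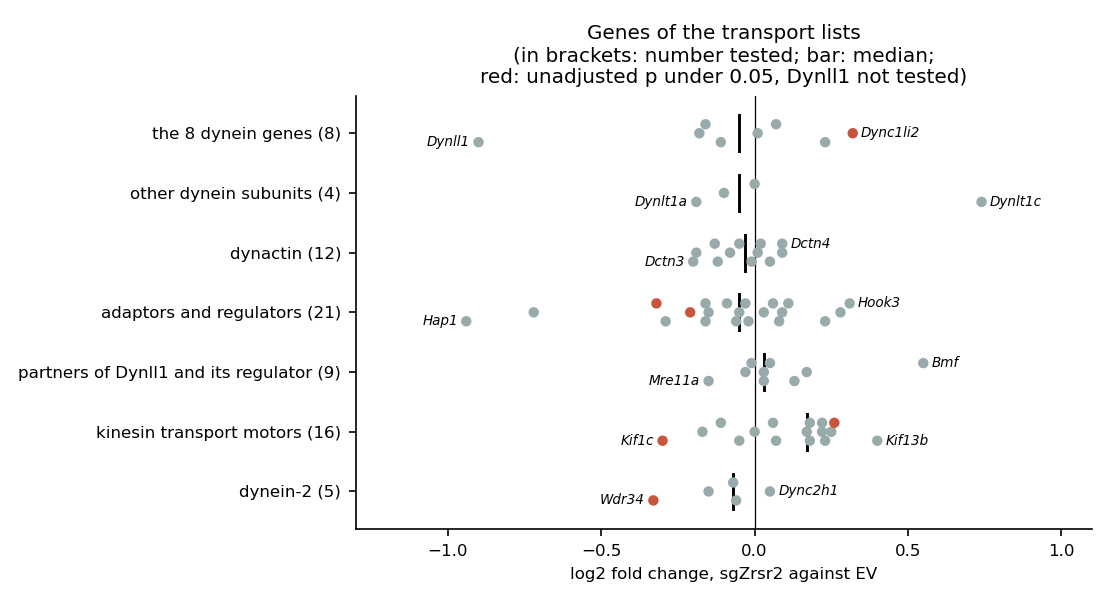
Each point is the log2 fold change (horizontal axis, sgZrsr2 against EV) of 1 tested gene in 7 lists, with a bar at the list's median and red for an unadjusted p under 0.05. Dynll1 is given without a test and is left grey. Dynll1 at -0.90 and Hap1 at -0.94, a gene with a mean of at most 0.382 CPM, are the lowest points, and the list medians lie between -0.07 and 0.17.

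The genes most like Dynll1 were found by Pearson's r of log2 CPM among the 9629 other genes that averaged 10 CPM or more, over the 9 libraries. They were Tasp1 (r = 0.978, Spearman's rho = 1.0), 6530401N04Rik (0.951, 0.933), 2310036O22Rik (0.950, 0.950), Cnih4 (0.948, 0.933) and Donson (0.947, 1.0). Without the 2 libraries farthest from the median of Dynll1 these r were 0.962, 0.936, 0.920, 0.936 and 0.920. All 5 were lower with sgZrsr2, by log2 fold changes of -0.52, -0.36, -0.22, -0.32 and -0.45, which the choice by likeness to Dynll1 favours. The 9 points share the group difference and the libraries' composition, and the 5 are the extremes of many genes, so no p is given.

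The other subunits were not among the 5 genes most like Dynll1. Over all libraries, r and rank include the group difference for which Dynll1 was picked, so nothing is read from them. Dynll2 ranked 912 and Dynlrb1 1725 of the 9629 other genes (r = 0.548 and 0.410), Dync1li1 2707 (0.28) and Dync1i2 4868 (0.021). Dync1h1, Dynlt3 and Dync1li2 had negative r of -0.486, -0.497 and -0.708. Without the 2 libraries farthest from the median, r of Dync1i2 was 0.467 and that of Dynlt3 was -0.028. After the group means were subtracted, r with Dynll1 was -0.337 for Dynll2 and between -0.607 (Dynlt3) and 0.190 (Dync1i2) for the others. Several of these values moved with the libraries used: without the 2 libraries farthest from the median, r of Dynll2 was 0.424, that of Dync1h1 went from -0.068 to 0.270 and that of Dync1li1 from -0.132 to -0.552. The most like genes within groups were Fbxw9 (0.933), Fam117a (0.931), Vill (0.930), Vrk3 (0.926) and Tasp1 (0.916). Tasp1, a protease, was the 1 gene among the 5 highest both before and after the group means were removed, at 15.7 ± 1.81 CPM for EV and 10.9 ± 1.41 CPM for sgZrsr2.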

How the data were processed

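RNA of 9 sorted LSK samples, 1 per mouse, was measured as polyadenylated RNA from 5 ng per library, per the labels' protocols. The values are expected counts per gene as the authors deposited them, made with cutadapt 1.11 and RSEM 1.2.30 on GRCm38, per the submitters' processing notes. The aligner, annotation release and strand setting are not given in the sources used here.

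The expected counts were rounded, filtered with filterByExpr (minimum count 10, minimum total 15), scaled with TMM factors and compared between all 5 EV and 4 sgZrsr2 samples with edgeR 4.0.16 (glmQLFit and glmQLFTest, R 4.3.3), with p-values adjusted by Benjamini-Hochberg over the 14944 genes left. The SE is the size of the log2 fold change divided by the square root of F, and intervals use the t distribution of the fit. Log2 CPM used a prior count of 2. Exact permutation tests were two-sided and enumerated all 126 assignments of the labels. The test was tested on simulated data.

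Alternatives were other scaling factors and filters, DESeq2 1.42.0 on the filtered genes, limma-voom (limma 3.58.1) with sample weights, a robust dispersion fit, a block for the mouse number, unrounded counts, sgZrsr2 mice 1 and 2 averaged, and leaving out libraries. The 8 genes, the lists, the tests and the alternatives were chosen with earlier results of these data known. The lists were written from general knowledge. Named in each list were the genes past the threshold or, with none, the 2 lowest and 2 highest log2 fold changes at a mean of at least 5 CPM. Of the listed genes, 4 were matched to older symbols through GENCODE M21 identifiers.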

Additional observations from a re-analysis of the deposited data

Results flagged for a closer look

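Dync1li2 was at 85.7 CPM in sgZrsr2 mouse 3, while sgZrsr2 mice 1, 2 and 5 lay between 66.1 and 68.8 CPM. The gap to the next library was 0.864 of the whole spread of these 4 values. This was the 1 set that stood out when all 8 genes were looked at in EV and sgZrsr2 separately (16 sets), and about 0.8 such sets come by chance. The library is 1 of the 3 with high Car1 and Vwf and had the highest TMM factor, 1.073. It also had the highest sums of erythroid markers (100 CPM) and of mature neutrophil markers (188 CPM). The part of any of these in the Dync1li2 value was not tested.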

How the results depend on the processing

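The log2 fold change of Dynll1 kept its direction in all 12 alternatives that changed the method or combined or left out several libraries (-1.156 to -0.803) and in 9 fits without 1 library each (-0.9842 to -0.8089). Since every sgZrsr2 library lay below every EV library, leaving out or averaging libraries could not be expected to turn the sign. Dynll1 was also picked for this difference, so the kept direction is a description. The count of the 7 other subunits past the adjusted threshold was 0 in each of these alternatives and fits. The count of all genes past it was 0 except with the DESeq2 Wald test, 16 genes (7 higher and 9 lower), and with sgZrsr2 mice 1 and 2 averaged, 1 gene, which was higher and none of the 8. The cause was not tested. Dync1i2, near 0 to begin with, changed sign with the replicate block (-0.01395), with limma-voom and quality weights (-0.09182), without EV mouse 5 and sgZrsr2 mice 3 and 5 together (-0.007132), and in 4 of the fits without 1 library, with values of -0.03132 to 0.04957 over those 9 fits. No other subunit changed sign. Dync1li2 stayed higher throughout, and its unadjusted p was above 0.05 without EV mouse 4 (0.0592), without sgZrsr2 mouse 3 (0.099), without the 3 libraries together (0.0832) and with the replicate block (0.138). With library totals in place of TMM factors the median of all genes moved from -0.0106 to 0.0206, and Dynll1 was at -0.8618.

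Same-numbered mice did not deviate together: the correlation of their deviations from the group means was -0.227, -0.0904, -0.404 and 0.369 for mice 1, 2, 3 and 5, so the numbers were not taken as pairs. With the replicate block 0 genes passed the adjusted threshold, Dynll1 was at -0.803, and 189 genes were higher and 152 lower at an unadjusted p under 0.05, against 579 and 445 without it. EV mouse 4 has no partner and adds nothing to that difference. The labels name separate mice but give no litter or sorting day.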
